A study of Mus musculus with 8 samples.

Results

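The AP-1 and immediate early genes described here are Fos, Fosb, Jun, Junb, Jund, Jdp2, Egr1, Egr2, Nr4a1 and Arc. They were taken by symbol from the gene column of a mouse expression array, on which each of the 10 genes has 1 probe. Of these 10 probes, 9 were bright enough to be tested, among 21314 genes or features tested in all. The probe of Egr2, an early growth response zinc finger factor, was not well above background on any of the 8 arrays, where its processed signal was between 2.59 and 3.99. Nothing further is given for it.

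All groups were made from wk3, a line of mouse pre-B cells without the signalling adaptor SLP-65 (genotype SLP-65-/-). They carried a retroviral vector, selected with puromycin, that expresses either a scrambled sponge as the control or a miR-15 sponge, an RNA meant to bind and so occupy all microRNAs of the miR-15 family. Each of these was grown with an excess of interleukin 7 (IL-7), or for 36 h without it, to induce differentiation. The 4 groups are called scrambled with IL-7, sponge with IL-7, scrambled without IL-7 and sponge without IL-7. Each had 2 arrays (n = 2), from separate experiments with clones made independently for each, and RNA was labelled with the single dye Cy3. The IL-7 was a supernatant of J558L cells that express it, and both vectors were delivered by infection, so all groups share transduction and selection.

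AP-1 is a dimer of basic leucine zipper proteins, in which a Jun protein (Jun, Junb, Jund) pairs with another Jun protein or with a Fos protein (Fos, Fosb), and it binds a short palindromic DNA element. Jdp2 is a related zipper protein that joins Jun proteins and represses AP-1 targets. Immediate early genes are transcribed within minutes of a stimulus without new protein synthesis, mainly through ERK, JNK and p38 kinases acting on SRF, ETS and CREB factors, and their mRNAs are mostly short-lived. In pre-B cells the signals of IL-7 and of the pre-B cell receptor meet on these kinases.

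MicroRNAs of the family that the sponge is meant to bind are shown because they define the construct that separates the groups. Their binding was not measured here. The mature sequences are from RefSeq (GRCm38.p6), read 5′ to 3′, with the seed, bases 2 to 8, in capitals. All 6 share 1 seed.
miR-15a: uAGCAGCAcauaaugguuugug
miR-15b: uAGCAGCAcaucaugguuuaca
miR-16: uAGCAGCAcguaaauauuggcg
miR-195: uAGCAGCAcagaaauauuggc
miR-322: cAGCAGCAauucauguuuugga
miR-497: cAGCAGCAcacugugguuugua

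The promoters of 5 genes that changed are shown because these genes moved in different directions after IL-7 withdrawal. The letters before their starts can thus be set beside the values given further on. Arc, which fell in scrambled cells, had no promoter entry in the reference used, and neither had Egr1. Each runs from base -250 to base -1 before the transcription start in RefSeq (GRCm38.p6), on the strand of the gene, with matches to the searched motifs in capitals. Jun lies at chr4:95052223-95052472 on the minus strand, Junb at chr8:84978749-84978998 on the minus strand and Jund at chr8:70697489-70697738 on the plus strand. Nr4a1 lies at chr15:101266596-101266845 and Fos at chr12:85473640-85473889, both on the plus strand.
Jun: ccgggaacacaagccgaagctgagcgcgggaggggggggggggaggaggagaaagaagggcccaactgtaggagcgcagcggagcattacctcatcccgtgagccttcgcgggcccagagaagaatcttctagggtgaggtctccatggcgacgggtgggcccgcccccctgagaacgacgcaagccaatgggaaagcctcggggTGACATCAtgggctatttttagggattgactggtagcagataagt
Junb: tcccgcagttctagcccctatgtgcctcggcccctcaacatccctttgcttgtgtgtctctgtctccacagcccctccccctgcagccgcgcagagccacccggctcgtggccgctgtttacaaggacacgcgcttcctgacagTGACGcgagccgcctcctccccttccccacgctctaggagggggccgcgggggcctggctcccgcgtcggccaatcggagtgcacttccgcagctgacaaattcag
Jund: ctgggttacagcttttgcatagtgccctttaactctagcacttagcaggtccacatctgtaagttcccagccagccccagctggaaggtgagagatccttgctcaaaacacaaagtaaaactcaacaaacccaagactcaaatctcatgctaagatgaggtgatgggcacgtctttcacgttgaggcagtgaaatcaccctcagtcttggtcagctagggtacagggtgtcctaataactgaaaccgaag
Nr4a1: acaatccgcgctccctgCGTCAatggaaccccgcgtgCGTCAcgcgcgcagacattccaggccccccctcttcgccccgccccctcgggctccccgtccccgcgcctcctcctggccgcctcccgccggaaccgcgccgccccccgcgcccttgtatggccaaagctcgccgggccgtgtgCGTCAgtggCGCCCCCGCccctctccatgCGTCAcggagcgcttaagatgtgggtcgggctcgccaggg
Fos: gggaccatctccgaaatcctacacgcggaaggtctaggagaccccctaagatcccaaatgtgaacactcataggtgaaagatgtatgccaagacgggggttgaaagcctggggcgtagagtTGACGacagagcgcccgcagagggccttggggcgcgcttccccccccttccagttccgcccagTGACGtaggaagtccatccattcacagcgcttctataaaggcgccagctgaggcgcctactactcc

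The motifs were searched on both strands in the same 250 bases before 32851 annotated starts. The cAMP response half-site TGACG, which binds CREB and ATF factors, was found before Fos, Fosb, Junb, Jdp2, Egr2 and Nr4a1, which is 6 of the 8 genes with a promoter entry, and in 17.8% of all windows. Fos had it at bases -129 and -66, Junb at -106 and Nr4a1 at -233, -213, -69 and -40. Egr2 and Jdp2 have several annotated starts, and a match in any of them was counted. The shares of all windows count each window on its own, so they are not of the same kind as the counts of genes. The half-site lies within the full element TGACGTCA, which none of the 8 held and 1.55% of all windows held. Jun held the variant TGACATCA at base -45, found in 2.93% of windows, and Jund held none of the motifs searched. The AP-1 site TGANTCA was in none of the 8 and in 6.75% of windows, and the EGR site GCGNGGGCG was before Nr4a1 (base -60) and Fosb and in 4.7% of windows. The serum response element was found before Egr2 and in 1.47% of windows. These are matches of letters in a fixed window, not measured binding. Bases outside this window were not searched, so a missing match does not show that a gene lacks the element.

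Levels below are the deposited processed signals in linear intensity units, listed with replicate 1 first. Differences are on the log2 scale, after each array was scaled to the 75th percentile of its signals, with the standard error (SE) from a limma fit over all 8 arrays and p-values adjusted by the Benjamini-Hochberg method over the 21314 features. A gene was called changed at an adjusted p under 0.05. Between 50.6% and 56.6% of non-control spots were well above background per array, and 0 were saturated. All 13 pre-B cell markers were well above background on both arrays of every group. Of 12 myeloid markers 7 or 8 were, with S100a9 above it on 0 arrays and Csf3r and Itgam (signals of 4305 to 9535) on all 8. Of 8 T cell markers 5 were, with Cd3g on 0 and Zap70 (9949 to 15741) and Lck (3173 to 5498) on all 8. Of 8 fibroblast markers 1 or 2 were, with Col1a2 (26.8 to 41.4) on all 8 arrays. Of 7 erythroid and megakaryocyte markers 2 to 4 were, with Gata1 and Pf4 on 0 and Tfrc (1990 to 2708) on all 8. The summed unscaled signal of the myeloid list was between 59666 and 62307 in scrambled cells with IL-7 and between 65774 and 77569 in the other groups. Most of each sum was Csf3r, with 52695 and 55332 in scrambled cells with IL-7 and 60233 to 70423 in the others. After scaling, the mean log2 values of Csf3r were 7.34 in scrambled and 7.49 in sponge cells with IL-7. Without IL-7 they were 7.52 and 7.39. The part of the markers of other cell types in the results was not tested. The replicates of scrambled cells with IL-7 were the furthest apart, with 1161 genes over 1 log2 unit apart, against 193 to 525 in the other groups. In bulk RNA, fewer cells with a transcript and less of it per cell cannot be told apart. All arrays lay on 1 slide, with IL-7 on one side and without IL-7 on the other, so position cannot be told apart from IL-7 or the sponge.

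**Figure D1:**
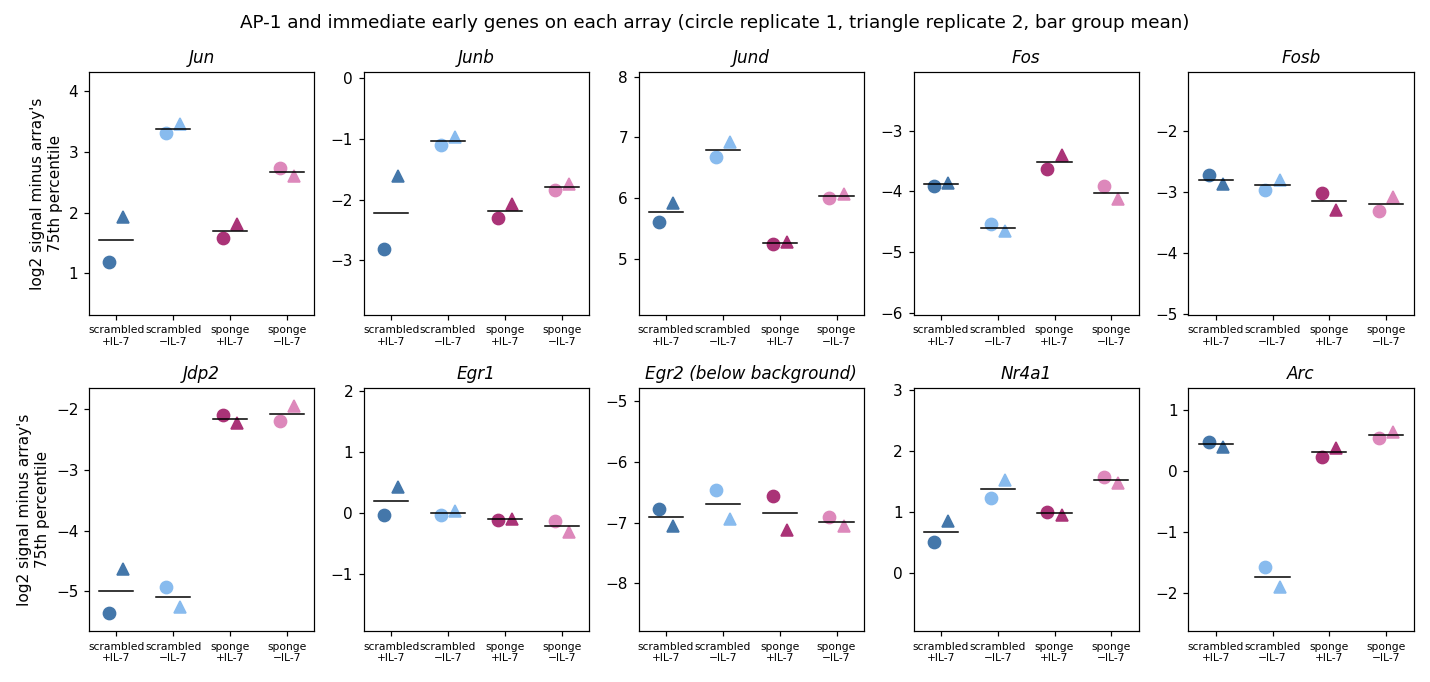
Log2 signal relative to the array's 75th percentile for the 10 AP-1 and immediate early genes, 1 panel a gene. Each array has 1 marker, and a bar lies at the mean of each group of 2. Egr2, which was not tested, is titled as below background. Arc was low on both arrays of scrambled cells without IL-7 (-1.57 and -1.91), and Jdp2 was high on all 4 sponge arrays.

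In scrambled cells, 36 h without IL-7 raised all 3 Jun genes and Nr4a1 and lowered Arc and Fos. Of the 9 tested genes 6 were called, 4 higher and 2 lower, while 48% of all genes were called in this comparison, 19.9% higher and 28.1% lower. After quantile normalization those shares of all genes were 24.6% and 23.3%. The 6 called genes were also those whose arrays did not overlap between the groups, which held for 74.9% of all genes. The median difference was -0.09 over the 9 genes and -0.04 over all genes.

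The Jun genes encode the subunit that Fos proteins need to bind DNA. Jun, the founding member, had signals of 666 and 1429 in scrambled cells with IL-7 and of 3452 and 4048 without it. Both arrays without IL-7 lay above both with it, although the arrays with IL-7 differed by 0.74 on the log2 scale. The difference was 1.83 ± 0.24 (SE, n = 2 per group), a 3.54-fold rise (limma, adjusted p = 0.00195). Its probe lies at chr4:94716928-94716987 (mm9, minus strand). Leaving out 1 array at a time gave 1.45 to 2.20, all called.

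Jund, usually the most steadily expressed Jun gene, also rose. Its signals were 14353 and 22920 with IL-7 and 35878 and 44678 without, with no overlap. The difference was 1.03 ± 0.13 (n = 2 per group, adjusted p = 0.00181 in the limma fit), and its probe lies at chr8:73224436-73224495 (mm9, plus strand).

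Junb, a Jun protein that can weaken the transforming activity of Jun, had signals of 41.7 and 123 with IL-7 and of 163 and 188 without. The arrays with IL-7 were 1.21 apart on the log2 scale, and the difference of 1.17 ± 0.37 (n = 2 per group) passed narrowly, with an adjusted p of 0.0426 in limma. Without scrambled with IL-7 replicate 1 the difference was 0.57 and without replicate 2 of that group 1.78, both called. It was not called when any one of the other 6 arrays was left out (adjusted p from 0.0661 to 0.155), after quantile normalization (0.0656), in the deposited value table (0.0653), without a filter on dim probes (0.0843) or in a fit of those groups alone (0.120). Its probe lies at chr8:87501881-87501940 (mm9, minus strand).

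Fos, the classic inducible partner of Jun, moved the other way. Its probe (chr12:86817900-86817959, mm9, plus strand) is printed in 10 spots, whose averaged signal was 19.6 and 25.9 with IL-7 and 15.1 and 14.7 without. After scaling, both arrays without IL-7 were below both with it, and Fos fell by 0.71 ± 0.12 on the log2 scale (n = 2 per group, limma adjusted p = 0.00442). The signal is close to the background. The median of the 10 spots of an array was 42.2 to 62.4 before subtraction, against a median local background of 17.0 to 20.5. The 10 spots of an array varied by 7.72% to 23.7% (coefficient of variation). With another background correction, normexp, the difference was -0.26 and was not called (adjusted p = 0.0627).

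Fosb, a second Fos protein, did not pass the test. Its signals were 44.5 and 51.7 with IL-7 and 44.8 and 52.9 without, which overlapped after scaling. The difference was -0.09 (95% interval -0.43 to 0.25, adjusted p = 0.621 in limma). Jdp2 was at or near background in scrambled cells, with signals of 7.18 and 15.1 with IL-7, where 1 of 2 arrays was well above background, and of 11.5 and 9.62 without, where neither was. Its difference of -0.10 was not called (adjusted p = 0.765).

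Among the immediate early genes outside AP-1, Arc had the largest change of the 9 tested genes. Arc encodes a capsid-like protein best known as an activity-induced regulator of synapses. Its signals were 410 and 498 in scrambled cells with IL-7 and 118 and 98.6 without, so that both arrays without IL-7 were far below. It fell by 2.18 ± 0.13 on the log2 scale (n = 2 per group), or 4.53-fold, with a limma adjusted p of 0.000252. Every left-out array and every other setting tried kept this call, and the left-out values ran from -2.35 to -2.01. Its probe lies at chr15:74499592-74499651 (mm9, minus strand).

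Nr4a1 encodes the orphan nuclear receptor NUR77, a marker of antigen receptor signalling in lymphocytes. Its signals were 414 and 678 with IL-7 and 823 and 1059 without, with no overlap. The rise of 0.70 ± 0.15 (n = 2 per group) had an adjusted p of 0.0113 in limma. It missed the threshold without scrambled without IL-7 replicate 2 (0.53, adjusted p = 0.0648) and in a fit of those groups alone (adjusted p = 0.0527). Its probe lies at chr15:101105071-101105130 (mm9, plus strand).

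Egr1, a zinc finger factor induced by ERK signalling, had signals of 287 and 506 with IL-7 and of 343 and 376 without, which overlapped. The difference of -0.20 (95% interval -0.59 to 0.20) was not called, with an adjusted p of 0.346 in limma. Without scrambled with IL-7 replicate 1 it was -0.43 and called (adjusted p = 0.0310), and with normexp -0.29 and called (0.0363).

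**Figure D2:**
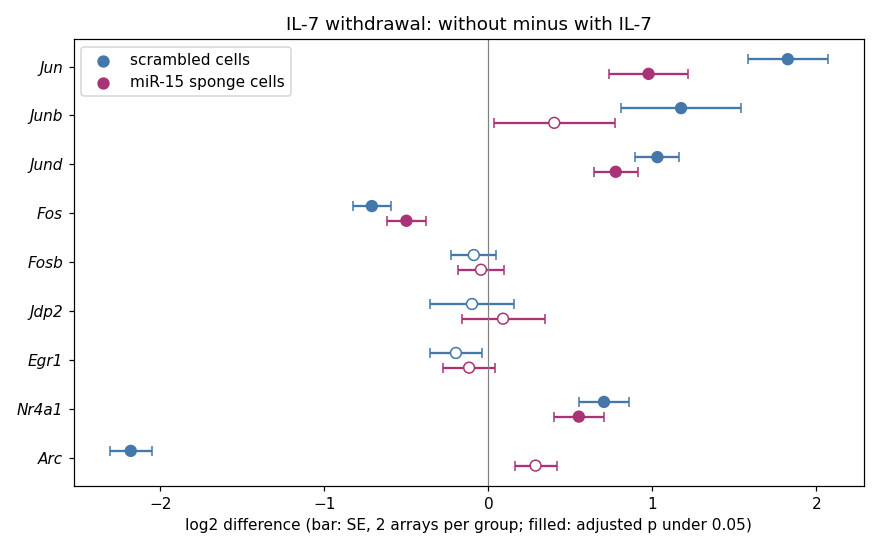
Log2 difference 36 h without IL-7 minus with IL-7 for the 9 tested genes, in scrambled and in sponge cells. Bars are SE with 2 arrays per group, and filled points are called at an adjusted p under 0.05. Arc is at -2.18 in scrambled and 0.29 in sponge cells, and Jun at 1.83 and 0.98.

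In cells with the miR-15 sponge, the same withdrawal raised Jun, Jund and Nr4a1 and lowered Fos, and Arc was not called. This is 4 of 9 tested genes, 3 higher and 1 lower, against 22.7% of all genes (7.91% higher and 14.8% lower, or 9.77% and 9.2% after quantile normalization). The arrays of 7 of the 9 genes did not overlap between the groups, as for 66% of all genes. The median difference was 0.29 over the 9 and -0.06 over all genes.

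Jun had signals of 1095 and 1260 in sponge cells with IL-7 and of 2665 and 2505 without, both above both. The rise was 0.98 ± 0.24 (n = 2 per group, limma adjusted p = 0.0377). Jund had 13779 and 13971 with IL-7 and 25493 and 27671 without, again with no overlap, a rise of 0.78 ± 0.13 (adjusted p = 0.0131). Both genes thus rose in both kinds of cell. Nr4a1 had 727 and 695 with IL-7 and 1192 and 1137 without, a rise of 0.55 ± 0.15 with an adjusted p of 0.0491. Fos had 29.3 and 33.9 with IL-7 and 26.5 and 23.4 without, and after scaling fell by 0.50 ± 0.12 (adjusted p = 0.0325). The arrays of Nr4a1 and of Fos did not overlap.

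These 4 calls rested on narrow margins. With replicate number as a block (replicate block), Fos and Nr4a1 were not called (adjusted p = 0.0544 and 0.0582), which left 2 of the 4. Jun was not called without any one of the 6 arrays outside scrambled with IL-7 (0.87 to 1.09 over all left-out arrays, lost calls at 0.0692 to 0.145). The same 6 arrays each ended the call of Nr4a1 (0.0602 to 0.182). Jund was lost without any one of the 4 sponge arrays (0.0546 to 0.0788), and Fos without sponge with IL-7 replicate 2 or any one array without IL-7 (0.0543 to 0.149). Quantile normalization ended the calls of Fos and Nr4a1 (0.0595 and 0.0559), normexp those of Jun and Fos (0.91 and -0.26, adjusted p = 0.0689 and 0.0937), and testing without a filter on dim probes those of Jun, Fos and Nr4a1 (0.0873, 0.0839 and 0.113).

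In sponge cells Junb signals of 73.7 and 85.0 with IL-7 compared with 111 and 123 after withdrawal. Its arrays did not overlap, but the difference of 0.40 (95% interval -0.51 to 1.31) was not called (limma adjusted p = 0.488). For Arc, the signals of 429 and 467 with IL-7 compared with 584 and 639 after withdrawal. Its 0.29 was above 0 and not called (95% interval -0.03 to 0.60, adjusted p = 0.168). Fosb, Egr1 and Jdp2 differed by -0.05, -0.12 and 0.09, none called.

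Whether withdrawal acted differently in the 2 kinds of cell was tested as the difference of the withdrawal effects, sponge minus scrambled. Arc was the only one of the 9 tested genes called, against 5.71% of all genes (4.8% above 0). Its difference was 2.47 ± 0.18 (95% interval 2.02 to 2.92, limma adjusted p = 0.0280), made up of the fall of 2.18 in scrambled cells and the 0.29 in sponge cells. The value stayed between 2.30 and 2.64 with any array left out. The call was lost without scrambled with IL-7 replicate 1, either sponge with IL-7 array, scrambled without IL-7 replicate 2 or either sponge without IL-7 array (adjusted p from 0.0587 to 0.120), and without a filter on dim probes (0.0864). The share of all genes called moved with the same arrays. It was 0% without either sponge with IL-7 array, scrambled without IL-7 replicate 2 or either sponge without IL-7 array, while 3315 to 4622 genes had an unadjusted p under 0.05 in limma. It was 0.0563% without scrambled with IL-7 replicate 1, and 0% without a filter on dim probes (4656 genes at an unadjusted p under 0.05), against 3.78% and 7.8% without either of the other two arrays.

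The point estimates of Jun and Junb were smaller in sponge than in scrambled cells, and the test of that difference was not passed. The difference was -0.85 for Jun (95% interval -1.69 to -0.0034, limma adjusted p = 0.218) and -0.77 for Junb (-2.06 to 0.51, adjusted p = 0.434). Both moved in either direction with the arrays of scrambled cells with IL-7. Without replicate 2 of that group they were -1.22 and -1.38, and without replicate 1 they were -0.48 and -0.17. Jund, Fos, Nr4a1, Fosb, Egr1 and Jdp2 had differences of -0.25, 0.21, -0.15, 0.04, 0.08 and 0.19, none called.

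**Figure D3:**
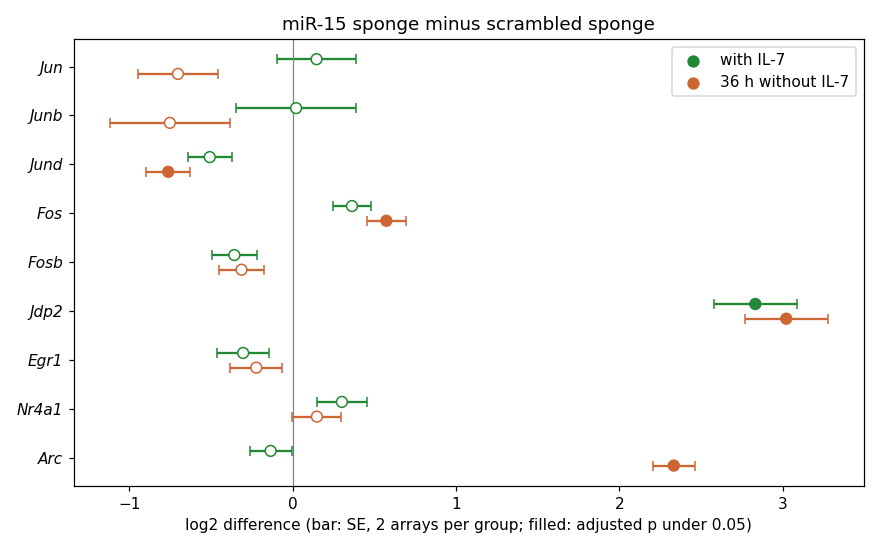
Log2 difference sponge minus scrambled for the 9 tested genes, with IL-7 and 36 h without it. Bars are SE with 2 arrays per group, and filled points are called at an adjusted p under 0.05. Jdp2 is at 2.83 with IL-7 and 3.02 without, and Arc is at -0.14 and 2.33.

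With IL-7 present, the sponge raised Jdp2, and none of the other 8 tested genes was called. The share of all genes called in this comparison was 1.1%. It ran from 0.178% without sponge with IL-7 replicate 2 to 6.39% without scrambled with IL-7 replicate 2, and was 0.0188% in a fit of those groups alone. Jdp2 passed the filter on dim probes only through the sponge groups, so its count among the called and non-overlapping genes is a description. Jdp2 had signals of 7.18 and 15.1 in scrambled cells and of 84.9 and 76.8 in sponge cells, so the sponge arrays lay far above. The difference was 2.83 ± 0.25 (n = 2 per group), with a limma adjusted p of 0.0122, and only 1 of the 2 scrambled arrays was well above background, so its size is uncertain. It was not called without sponge with IL-7 replicate 1 (adjusted p = 0.0775) or replicate 2 (0.0815), at 2.47 to 3.19 over all left-out arrays, or in a fit of those groups alone (0.170). With normexp, which adds an offset that draws dim signals together, it was 0.89 and called (0.00343). Its probe lies at chr12:86980657-86980716 (mm9, plus strand), 162.7 kb beyond that of Fos, with Batf, another zipper partner of Jun, at 231.9 kb.

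Of the others with IL-7, sponge minus scrambled cells gave 0.36 for Fos, 0.30 for Nr4a1, -0.51 for Jund, -0.36 for Fosb and -0.30 for Egr1, none called. The adjusted p-values of these 5 in limma ran from 0.141 to 0.346. Jun, Junb and Arc differed by 0.15, 0.02 and -0.14. The arrays of 7 of the 9 genes did not overlap, as for 50.8% of all genes.

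Without IL-7, sponge cells had more Arc, Jdp2 and Fos and less Jund than scrambled cells. These 4 of 9 tested genes, 3 higher and 1 lower, stand against 31.7% of all genes (17% higher and 14.7% lower). The arrays of 8 genes did not overlap, as for 72.5% of all genes. Both counts include Jdp2, which passed the filter on dim probes only through the sponge groups. Its place in them and its call below are therefore a description. Arc had 118 and 98.6 in scrambled and 584 and 639 in sponge cells. The difference of 2.33 ± 0.13 (n = 2 per group) was 5.04-fold, with a limma adjusted p of 0.00108, and it stayed called with any array left out (2.17 to 2.50).

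Jdp2 had 11.5 and 9.62 in scrambled cells, where neither array was well above background, and 87.0 and 106 in sponge cells. By the fitted difference its signal was 8.12-fold higher in sponge cells (limma adjusted p = 0.00127). A lower bound takes, on each array of the dim group, the higher of the dimmest signal that counts as well above background and the measured one. Here the measured one was higher on both scrambled arrays. The bound therefore equals the fitted difference of 3.02, carries its error (95% interval 2.40 to 3.65) and is not a minimum. The call also held with any array left out, at 2.86 to 3.19, and with normexp the difference was 0.98 (adjusted p = 0.00013).

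Fos had 15.1 and 14.7 in scrambled and 26.5 and 23.4 in sponge cells, a difference of 0.57 ± 0.12 (n = 2 per group, limma adjusted p = 0.0152). With normexp it was 0.02 and not called (adjusted p = 0.913), and without either scrambled array or sponge replicate 1 of this pair of groups it was not called (0.0513 to 0.0933). Jund had 35878 and 44678 in scrambled and 25493 and 27671 in sponge cells, a difference of -0.76 ± 0.13 (adjusted p = 0.00879). Without scrambled without IL-7 replicate 2 or sponge without IL-7 replicate 1 its call was lost (adjusted p = 0.0574 and 0.0542).

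Jun and Junb were lower in sponge cells on both arrays and not called. Jun differed by -0.70 (95% interval -1.30 to -0.11, limma adjusted p = 0.0766) and Junb by -0.75 (-1.66 to 0.15, adjusted p = 0.179). The replicates of both were furthest apart in scrambled cells with IL-7, a group outside this comparison that adds to the spread estimated in the fit. Without either array of that group both were called (adjusted p = 0.00993 for Jun and 0.00716 for Junb), as they were in a fit of the groups without IL-7 alone (0.0117 and 0.00894). Jun was also called after quantile normalization at -0.81 (adjusted p = 0.0429), in the deposited value table (0.0430) and with arrays weighted by their variability (0.0235). Fosb, Egr1 and Nr4a1 differed by -0.31, -0.22 and 0.15, none called.

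The other zipper partners of AP-1 were read from a list of 15 genes, 10 of them tested. In scrambled cells 4 rose and 1 fell after withdrawal, and in sponge cells 2 rose and 0 fell, with medians of 0.30 and 0.17. The counts of this and the following lists stand beside the 48% and 22.7% of all genes called in scrambled and sponge cells, and their medians beside -0.04 and -0.06. Maf, a large zipper factor, had 28.8 and 54.0 with IL-7 and 215 and 266 without in scrambled cells, a rise of 2.49 ± 0.20 (limma adjusted p = 0.000411). In sponge cells it rose by 2.52 from 12.8 and 14.9, where 1 of 2 arrays was well above background. With normexp its rises were 1.38 and 0.78, both called. Batf rose by 1.21 (adjusted p = 0.00107) in scrambled cells and by 0.61 (0.0262) in sponge cells, the second lost after quantile normalization. Mafg, a small zipper protein without an activation domain, had 2053 and 2340 in scrambled and 1511 and 1436 in sponge cells without IL-7. The sponge arrays were below, by a difference of -0.74 ± 0.08 (adjusted p = 0.00185) that stayed called with any array left out. Its withdrawal differences of 0.24 and -0.27 were not called (0.0512 and 0.0614).

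Atf3 is a stress-induced partner of Jun. Its signals were 42.2 and 49.6 in scrambled cells with IL-7 and 24.0 and 24.9 without, and 86.0 and 83.6 in sponge cells with IL-7 and 94.1 and 91.5 without. All 4 sponge arrays were above all 4 scrambled arrays. It fell by 1.02 ± 0.08 in scrambled cells (limma adjusted p = 0.000369) and differed by -0.03 in sponge cells (0.823), and the difference of these effects was 0.99 (0.0280). The sponge raised it by 0.77 with IL-7 (0.0175) and by 1.76 without (0.000810). With normexp the difference of effects was 0.31 and the sponge effect with IL-7 0.32, neither called (adjusted p = 0.225 and 0.129), and the fall in scrambled cells was -0.41 and the sponge effect without IL-7 0.63, both called.

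Of 36 other immediate early genes 31 were tested. After withdrawal 16 rose and 6 fell in scrambled cells, with a median of 0.45, and 12 rose and 4 fell in sponge cells, with a median of 0.28. Both counts of risers include Ier3, which passed the filter on dim probes only through scrambled cells without IL-7. On sponge arrays Ier3 was never well above background, so its place in these counts is a description. Cd69, an early activation antigen of lymphocytes, had 294 and 345 with IL-7 and 1600 and 2100 without in scrambled cells. In sponge cells it had 382 and 363 with IL-7 and 573 and 561 after withdrawal. The rise of 2.41 ± 0.12 in scrambled cells (limma adjusted p = 0.000217) stood against 0.45 in sponge cells (0.0471, or 0.0738 with the replicate block), and the difference of effects was -1.97 ± 0.17 (adjusted p = 0.0280).

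Tnfaip3, an inhibitor of NF-kB signalling, had 535 and 782 with IL-7 and 2285 and 2643 without in scrambled cells, and 603 and 617 and then 1221 and 1222 in sponge cells. It rose in both, by 1.81 and 0.84, with a difference of -0.97 ± 0.13 (limma adjusted p = 0.0280). Sik1, a salt-inducible kinase, rose by 1.27 and 0.92. Ier3, an early gene of stress responses, was well above background only on the 2 arrays of scrambled cells without IL-7 (18.6 and 22.8), at least 1.85-fold above scrambled cells with IL-7 and at least 2.39-fold above sponge cells without.

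**Figure D4:**
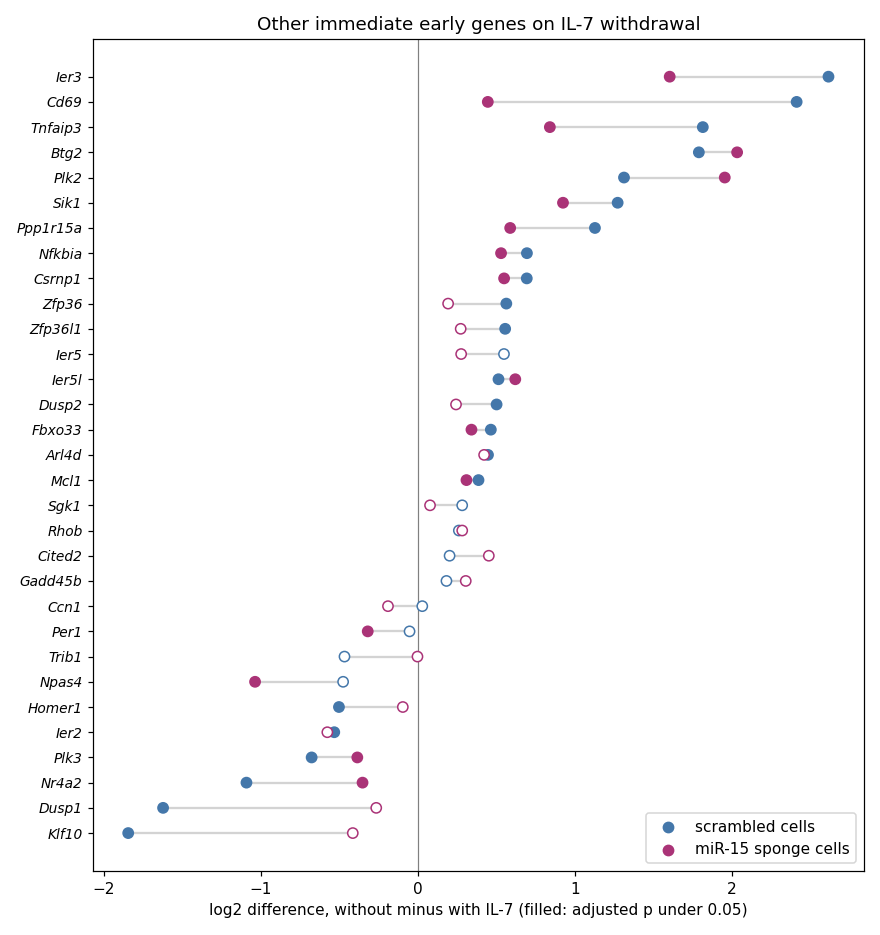
Log2 difference 36 h without IL-7 minus with IL-7 for the 31 tested other immediate early genes in scrambled and sponge cells, with a line joining the values of a gene and filled points called at an adjusted p under 0.05. Cd69 runs from 0.45 in sponge to 2.41 in scrambled cells, Klf10 lies at -1.84 in scrambled cells, and the values of Ier3 are fitted from signals near the background.

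Klf10, Dusp1 and Nr4a2 were chosen after their values were seen, because with Cd69 and Tnfaip3 they were the listed immediate early genes with a called difference of effects. Klf10, a zinc finger repressor induced by TGF-beta, had 829 and 1013 with IL-7 and 304 and 250 without in scrambled cells. In sponge cells it had 1268 and 1308 and then 1136 and 1027. It fell by 1.84 in scrambled cells, and the difference of effects was 1.43 ± 0.19 (limma adjusted p = 0.0280). Dusp1, a phosphatase of MAP kinases, fell by 1.62, with a difference of 1.36 ± 0.20 (0.0295). Nr4a2, the close relative of Nr4a1, fell by 1.09 in scrambled cells and by 0.35 in sponge cells, with a difference of 0.74 ± 0.13 (0.0372). With the replicate block the last 2 values of Nr4a2 were not called (0.0662 and 0.0628).

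Of the 24 tested genes of the ERK, JNK and p38 cascades, 7 rose and 7 fell in scrambled cells and 3 rose and 3 fell in sponge cells, with medians of -0.05 and -0.07. Mapk3, which encodes ERK1, fell by 1.06 in scrambled cells and Map2k3, a kinase upstream of p38, fell by 1.15 (limma adjusted p = 0.000578 and 0.000455). Their effects in sponge cells differed from these by 0.76 (0.0392, or 0.0516 with the replicate block) and 0.78 (0.0374). Mapk11, a p38 kinase, fell by 0.81 in scrambled cells. Rasgrp1, an activator of RAS, rose in both, by 0.91 and 0.66.

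Of 17 SRF, ETS and CREB regulators 7 rose and 2 fell in scrambled cells, and 1 rose and 1 fell in sponge cells, with medians of 0.27 and 0.08. Atf1, a CREB relative, fell by 0.73 in scrambled cells. Crtc2, a coactivator of CREB, rose by 0.53 and Crebbp, the CREB-binding acetyltransferase, by 0.46, or by 0.77 after quantile normalization. Sponge minus scrambled, Crebbp was at -1.13 with IL-7 and -1.52 without, both called, while its second kept probe gave -0.10 and -0.29. The call with IL-7 was lost without either sponge array with IL-7 (adjusted p = 0.0632 to 0.0634). Crem, a CREB modulator, rose by 0.32, and its 3 kept probes ranged from 0.02 to 0.39. That call was lost without scrambled with IL-7 replicate 2 or either array of scrambled cells without IL-7 (adjusted p from 0.0684 to 0.122).

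Among 13 corepressors and turnover factors, 3 rose and 5 fell in scrambled cells and 1 rose and 2 fell in sponge cells, with medians of 0.03 and -0.03. Nab2, which binds and represses EGR proteins, fell by 1.26 in scrambled cells and by 0.54 in sponge cells, and the effects differed by 0.73 ± 0.14 (limma adjusted p = 0.0479, or 0.0675 with the replicate block). With normexp its fall in scrambled cells was -0.77 and the difference of effects 0.36, which was not called (0.225). Zfp36, which speeds the decay of AU-rich mRNAs and also stands in the list of immediate early genes, rose by 0.56, and its relative Zfp36l2 fell by 0.82, or by 0.35 after quantile normalization. Tob1, an antiproliferative adaptor of mRNA deadenylation, rose by 0.56 in sponge cells and differed by 0.03 in scrambled cells.

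Heat shock genes, listed as a sign of cell stress, mostly fell. Of 10 tested 1 rose and 9 fell in scrambled cells, and 1 rose and 5 fell in sponge cells, with medians of -0.61 and -0.36. In scrambled cells Hsp90aa1 fell by 1.22, Hsp90ab1 fell by 0.91 (0.41 after quantile normalization) and Hspd1 fell by 0.63, all genes of the major folding machines. The riser was Hspa1a, the inducible HSP70, with 19.4 and 36.3 with IL-7 and 192 and 261 without, a rise of 2.97 ± 0.25 (limma adjusted p = 0.000483), or 1.71 with normexp. It has a near-identical copy, Hspa1b, which the probe may also read. The part of cell stress in the results was not tested. Across these lists, several smaller calls in sponge cells were lost when 1 array was left out, at adjusted p-values up to 0.182. This held for Batf without any one sponge array, for Cd69 without any one array other than those of scrambled cells without IL-7, and for Nr4a2 without any one of the 8. It held for Nab2 without either sponge array with IL-7 or sponge without IL-7 replicate 2, and for Tob1 without sponge with IL-7 replicate 2 or sponge without IL-7 replicate 1. The call of Atf3 between sponge and scrambled cells with IL-7 was lost without any one array other than those of scrambled cells with IL-7 (0.0548 to 0.106). The called differences of effects of Atf3, Cd69, Tnfaip3, Klf10, Dusp1 and Map2k3 were each lost without any one array other than scrambled with IL-7 replicate 2 or scrambled without IL-7 replicate 1 (adjusted p from 0.0587 to 0.130). That of Mapk3 was lost without any one array other than scrambled with IL-7 replicate 2, and also with normexp. Those of Nab2 and Nr4a2 were lost without any one of the 8. All 9 were lost without a filter on dim probes (0.0864 to 0.132), and those of Map2k3, Nab2 and Nr4a2 also with arrays weighted by their variability (0.0520 to 0.0582).

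The 3 tested genes whose group means ranged furthest were Jdp2, Arc and Jun, and the genes nearest to each were found by the root mean square (RMS) distance of the centred log2 values over the 8 arrays. Nearest to Arc were Fam90a1b (RMS 0.168), Iqgap3 (0.195) and Lrrc75a (0.200). In scrambled cells after withdrawal these differed by -2.41, -1.97 and -1.99. Nearest to Jun were Id1 (0.0914), H2-T24 (0.139) and Ifi214 (0.154), higher by 1.75, 1.79 and 2.06 in scrambled and by 0.97, 0.82 and 1.16 in sponge cells. Nearest to Jdp2 were 9430069I07Rik (0.311), Cblc (0.396) and Apol7a (0.548), which were 3.11, 2.60 and 1.82 higher in sponge cells with IL-7. These genes were picked for their likeness, so the values describe the choice.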

How the data were processed

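RNA of 8 cultures was hybridised to one-colour Agilent arrays, 1 array each. The deposited scanner files hold a processed signal in linear intensity units, with background subtracted and trends removed within each array and no scaling between arrays, per the file headers. The submitters' processing notes name Feature Extraction 10.7.1.1, and the headers name 10.7.3.1. The series' value table, intensity as deposited too, has sorted values that are equal on every array within 0.00609 on the log2 scale, and its software is not given in the sources used here.

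Control spots and spots flagged as non-uniform or population outliers were removed. Signals were put on the log2 scale, the 75th percentile of the array was subtracted, and repeated spots of 1 probe were averaged. A probe had to exceed background clearly on both arrays of some group (30950 of 55681 did), and the brightest such probe stood for a gene. The 4 group means were fitted with limma 3.58.1 (R 4.3.3), with two-sided moderated tests and Benjamini-Hochberg adjustment; the scripts were tested on simulated data. Alternatives were quantile normalization, normexp (offset 50), the value table, other filters, other probe rules, a replicate block, fewer groups, array weights and each array left out. The study describes the 2 repetitions as separate experiments, and replicate numbers were taken to mark them, although no label ties the numbers across groups and deviations from group means correlated by only 0.02 to 0.13 between groups.

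The members and gene lists were chosen with earlier results of these data known. All members are described, and of each list the 4 tested genes with the smallest p in any of 5 comparisons. Positions of probes follow the deposited mm9 annotation, and exons and untranslated regions were not assigned here. The number of arrays limits the precision.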

Additional observations from a re-analysis of the deposited data

Results flagged for a closer look

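The effect of 36 h without IL-7 differed between sponge and scrambled cells in the limma test of the difference itself for 10 genes named above. Among the AP-1 and immediate early members this was Arc, at 2.47 on the log2 scale, sponge minus scrambled. Klf10 was at 1.43, Dusp1 at 1.36 and Atf3 at 0.99. Map2k3 was at 0.78, Mapk3 at 0.76, Nr4a2 at 0.74 and Nab2 at 0.73. In these 8 genes the fall seen in scrambled cells was smaller or not called in sponge cells. Cd69 was at -1.97 and Tnfaip3 at -0.97, where the rise was smaller in sponge cells. Each comparison has 2 arrays per group, and 5.71% of all genes passed the same test. That share was 0% without any one of 5 of the 8 arrays and 0% without a filter on dim probes (limma, with 3315 to 4656 genes at an unadjusted p under 0.05), and 0.0563% without scrambled with IL-7 replicate 1.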

How the results depend on the processing

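The members called after withdrawal in scrambled cells numbered 4 to 7 with 1 array left out, against 6. In sponge cells they numbered 2 after quantile normalization, with normexp or with the replicate block, 1 without a filter, and 0 to 4 with 1 array left out, against 4. For sponge minus scrambled with IL-7 they numbered 0 where probes had to be well above background on all 8 arrays, under which Jdp2 was not tested, or in a fit of those groups alone, and 0 to 1 with 1 array left out, against 1. Without IL-7 they numbered 2 to 6 with 1 array left out, against 4. For the difference of effects they numbered 0 without a filter and 0 to 3 with 1 array left out, against 1. No member with a called difference changed sign. The replicate block changed no member's call beyond those of Fos and Nr4a1 in sponge cells (adjusted p = 0.0544 and 0.0582). The cause of these changes was not tested.

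Uncalled members changed sign as follows. With normexp, Jdp2 in sponge withdrawal was at -0.0111 and the difference of effects of Fos at -0.0082. With 1 array left out, withdrawal in scrambled cells ran from -0.43 to 0.0325 for Egr1 and from -0.46 to 0.26 for Jdp2 (0.07 without scrambled without IL-7 replicate 2). Withdrawal in sponge cells ran from -0.18 to 0.0909 for Fosb and from -0.0324 to 0.21 for Jdp2. Sponge minus scrambled with IL-7 ran from -0.23 to 0.52 for Jun and from -0.58 to 0.63 for Junb. The difference of effects ran from -0.0925 to 0.18 for Fosb, from -0.15 to 0.31 for Egr1, from -0.17 to 0.55 for Jdp2 and from -0.33 to 0.0233 for Nr4a1. For Jun and Junb the low end was without scrambled with IL-7 replicate 1. Signal over background limits Fos, Jdp2 and Egr2, and 2 arrays per group limit every comparison.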
